A study of Saccharomyces cerevisiae with 36 samples.

Results

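The 26S proteasome genes of budding yeast were followed through iron starvation in a mutant and in wild type, at the level of mRNA and of ribosome footprints. The members were taken by standard gene name: SCL1, PRE1 to PRE10, PUP1 to PUP3, RPT1 to RPT6 and RPN1 to RPN14. That rule gave 34 of the 7127 features counted in each library. It covers the 14 subunits of the core particle (7 of the α ring and 7 of the β ring) and 18 subunits of the regulatory particle (6 base ATPases, 4 other base subunits and 8 lid subunits). Of the other members, RPN4 encodes a transcription activator and RPN14 an assembly chaperone, and neither is a stoichiometric subunit. SEM1 falls outside the name rule and is counted below with the associated proteins, so the 8 lid subunits are those with RPN names.

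The study counted fragments of bead-purified mRNA (RNA-seq) and ribosome-protected fragments (Ribo-seq) from the same lysates. One strain was cth1Δcth2Δ (the mutant), which lacks CTH1 and CTH2 (listed under its standard symbol TIS11), genes of a family of RNA-binding proteins, and the other strain was its wild type W303a. Each strain was grown at 30 °C in Kaiser SC medium to early exponential phase and collected before addition of 100 µM BPS, a chelator of ferrous iron (0 h), or 3 h and 6 h after it. Frozen cells were ground and taken up in buffer with cycloheximide, footprints came from the 80S peak after RNase I, and the 36 libraries form 12 groups of 3 biological replicates. The question that the design addresses here is whether core and regulatory particle genes change together under iron deficiency, in mRNA or in footprints, and whether that differs without the RNA-binding proteins.

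The core particle is a barrel of stacked rings whose inner β subunits cut proteins, and the α rings form its gate. The regulatory particle caps the barrel: its base ATPases unfold substrates, other base subunits receive ubiquitin chains, and the lid holds the deubiquitinase Rpn11. Rpn4 is a short-lived activator that the proteasome itself degrades, and it binds the proteasome-associated control element in the promoters of proteasome genes. Loss of proteasome activity is known to stabilise Rpn4 and so to raise transcription of its targets.

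The element GGTGGCAAA was searched in both orientations from 250 bases before to 50 bases after the start codon, in the R64 assembly from RefSeq. It was found in 27 of the 34 members (79.4%), 12 of 14 core and 15 of 18 regulatory subunits, against 72 of 5996 nuclear protein-coding genes (1.2%). Among the subunits, those without it in this window were PRE5, PUP1, RPN8, RPN10 and RPN13, and RPN4 and RPN14 lacked it too. Each of the 27 held it once, 84 to 183 bases before the start codon (median 120), on the coding strand in 19 and on the other strand in 8. The sites below belong to the subunits whose changes are described further on. Each is 30 bases of the R64 genome read 5′ to 3′ on the gene's coding strand, with the element in capitals. TTTGCCACC is the same element on the other strand.
PRE8 (chrXIII:86840-86869, minus strand): agcttattaaGGTGGCAAAattgtccccgg
PUP2 (chrVII:999225-999254, minus strand): aaccaagaccGGTGGCAAAagagtaaccta
PRE2 (chrXVI:732184-732213, plus strand): acagcaaaagGGTGGCAAAacgaagaatag
RPT1 (chrXI:174048-174077, plus strand): attaccgaatTTTGCCACCcgaaaactaaa
RPT3 (chrIV:1261495-1261524, plus strand): ctgaaagtaaGGTGGCAAAatagtaaatct
RPN2 (chrIX:220800-220829, minus strand): atttattttcGGTGGCAAAactggatacat
RPN5 (chrIV:190776-190805, plus strand): ttgacttttcGGTGGCAAAatgcaaagggg
RPN12 (chrVI:252398-252427, plus strand): ctacacattaTTTGCCACCcattgaaattg
The bases on both sides of the element differ between these sites, and the element lies 97 to 176 bases before the start codon in them. A match is a description of the letters and not evidence of binding in these cells. The AU-rich letters TTATTTAT, which proteins of the Cth family recognise in RNA, were found within 300 bases after the stop codon on the coding strand of 0 of the 34 members, against 412 of 5996 genes (6.87%).

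**Figure D1:**
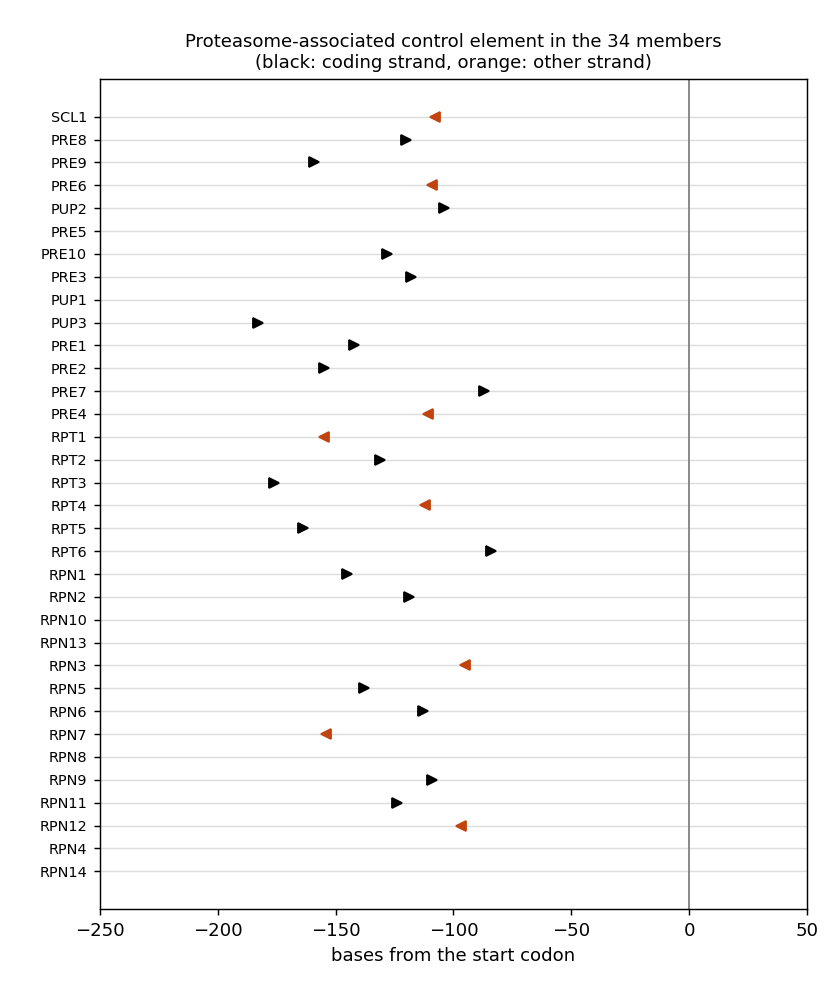
Position of the control element in each of the 34 members, in bases from the start codon (0) within the window searched. Triangles mark the element on the coding strand (black) or on the other strand (orange), and rows with no triangle are the 7 members without it. The sites lie 84 to 183 bases before the start codon.

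A median RNA-seq library held 1474766 counts (113262 to 6571727), and a median Ribo-seq library 4631432 (607936 to 28491058). The smallest count of any member was 3 in RNA-seq and 13 in Ribo-seq. The shallowest RNA-seq libraries included mutant 0 h replicate 2 with 186283 counts, wild type 6 h replicates 1 and 2 with 113262 and 215168 counts, and wild type 0 h replicate 2 with 245994 counts. CTH1, 1 of the deleted genes, had 0 to 3 footprint counts in mutant libraries, against 31 to 711 in wild type libraries, and 0 to 6 RNA counts in mutant libraries, against 4 to 245 in wild type. TIS11 had 1 to 2 footprint counts in mutant libraries at 6 h, against 2140 to 10284 in wild type. At 0 h TIS11 was low in both strains and did not separate them, with 12 to 17 footprint counts in the mutant and 6 to 56 in wild type. The MATa gene STE2 was read in every RNA-seq library, and the α-specific gene STE3 was low, at most 59 counts in mutant and 113 counts in wild type RNA-seq, both at 6 h. Levels are library-scaled counts (CPM) with TMM factors from the same assay, and are compared between genes only per kilobase of deposited feature length. TMM scaling matters here: the members took 0.654 to 0.988% of the RNA-seq counts at 6 h, against 0.304 to 0.565% at 0 h, while the median log2 change of all features between those times was 0.01 in the mutant and 0.03 in wild type. With scaling by total counts alone, those medians were 0.71 in the mutant and 0.62 in wild type. In bulk lysates, a change in every cell and a change in the mix of cells cannot be told apart.

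Before BPS, the subunits of wild type lay within a narrow range of levels, narrower in footprints than in mRNA. In Ribo-seq the core subunits had a median level of 181 CPM per kilobase, from 151 to 225, a 1.49-fold range with a coefficient of variation of 12.5%. The regulatory subunits had a median of 158 CPM per kilobase, from 116 to 249, a 2.15-fold range with a coefficient of variation of 19.7%. In RNA-seq the core median was 238 CPM per kilobase (125 to 325, a 2.6-fold range) and the regulatory median was 146 CPM per kilobase (96.9 to 270, a 2.79-fold range). All coding genes had medians of 21.2 CPM per kilobase in Ribo-seq and 33.8 CPM per kilobase in RNA-seq. The subunits therefore lay above the typical gene in both assays, with core above regulatory by a larger factor in mRNA.

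The highest footprint level at 0 h belonged to RPN6, a lid subunit that touches the core particle, with 249 ± 28.7 CPM per kilobase (SD, n = 3 here and below). The next were the β subunits PUP3 with 225 ± 23.2 and PRE7 with 223 ± 10.2 CPM per kilobase, within the spread of RPN6. The lowest was RPN2, the large scaffold of the base, with 116 ± 5.23 CPM per kilobase, and RPN3 above it had 131 ± 15. In RNA-seq the highest was the α subunit PRE9 with 325 ± 53.9 CPM per kilobase, not separated from the β subunits PRE3 with 314 ± 20.8 and PRE2 with 311 ± 72.5. RPN2 was lowest in RNA-seq too, with 96.9 ± 36.4 CPM per kilobase, next to the other large base subunit RPN1 with 101 ± 9.2. PRE7 was the lowest core subunit in RNA-seq with 125 ± 16.5 CPM per kilobase, while in footprints it was among the highest. RPN4 and RPN14 lay far below the subunits, RPN4 with 19.4 ± 2.72 and RPN14 with 10.6 ± 1.67 CPM per kilobase in Ribo-seq.

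**Figure D2:**
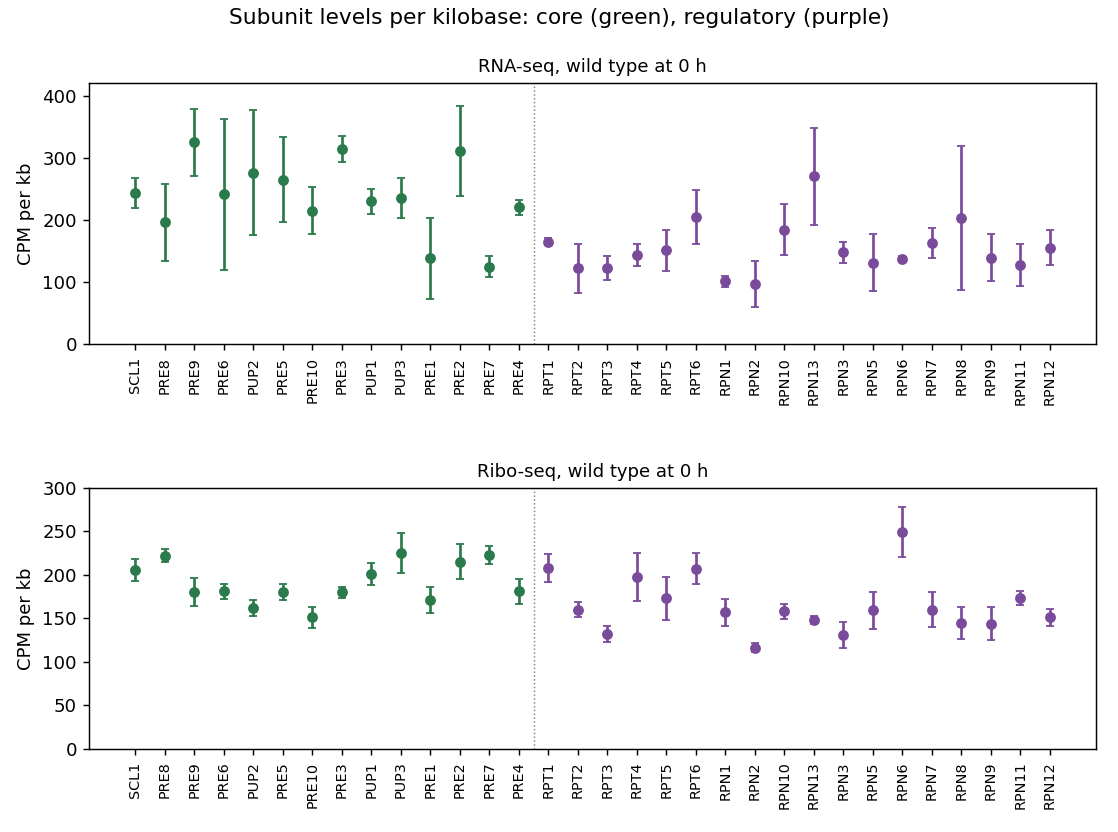
Level of each subunit in wild type at 0 h, in CPM per kilobase, in RNA-seq (top) and Ribo-seq (bottom). Points are means and bars are SD over 3 replicates, core subunits in green and regulatory subunits in purple. Footprint levels of the core subunits fill a narrower band, 151 to 225 CPM per kilobase, than their RNA levels, 125 to 325.

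RPN4 changed more than any other member at 6 h, and it did so in both strains and both assays. Its RNA was 111, 174 and 144 CPM in the mutant at 6 h, against 36.4, 73.9 and 26.9 CPM at 0 h. In wild type it was 89, 185 and 190 CPM at 6 h, against 53.3, 33.8 and 32.7 CPM at 0 h. The 6 h and 0 h libraries did not overlap in either strain. The log2 change was 1.88 ± 0.39 (SE) in the mutant and 1.96 ± 0.38 in wild type, with adjusted p of 0.000695 and 0.000344 by the quasi-likelihood test of edgeR, Benjamini-Hochberg adjusted over all features. The counts behind the wild type values at 6 h were 12, 51 and 1229.

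Footprints on RPN4 rose too, and were 187, 358 and 271 CPM in the mutant at 6 h, against 27.9, 29.6 and 16.2 CPM at 0 h. In wild type they were 183, 227 and 335 CPM at 6 h, against 35.7, 27 and 30.4 CPM at 0 h. Every 6 h library was above every 0 h library, and the fitted folds were 11.3 in the mutant and 8 in wild type. The log2 change was 3.50 ± 0.47 in the mutant and 3.00 ± 0.46 in wild type (edgeR's quasi-likelihood test, adjusted p = 2.96e-05 and 7.95e-05). At 3 h the footprints were 33.8, 64.6 and 33.3 CPM in the mutant and 33.8, 102 and 32 CPM in wild type. In both strains replicate 2 was the high one at 3 h. The log2 change at 3 h was 0.87 in the mutant and 0.84 in wild type, and neither passed the test (adjusted p = 0.287 and 0.335). Without wild type 3 h replicate 2 that value was 0.09 in wild type. All 4 calls for RPN4 at 6 h held under every alternative run, with log2 changes of 1.55 to 2.65 in RNA-seq and 2.72 to 3.74 in Ribo-seq.

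RPN14, the chaperone that helps to assemble the base, also had more footprints at 6 h. These were 37.8, 45.2 and 25.9 CPM in the mutant at 6 h, against 8.92, 14.4 and 15.2 CPM at 0 h. In wild type they were 31.1, 33.3 and 27.2 CPM at 6 h, against 15.5, 11.3 and 13.2 CPM at 0 h. No library overlapped between the times. The log2 change was 1.53 ± 0.30 in the mutant and 1.20 ± 0.30 in wild type (edgeR's quasi-likelihood test, adjusted p = 0.000617 and 0.00372). With every library thinned to the smallest, the mutant value was 0.71 and no longer passed. Its RNA passed the test in the mutant, with a log2 change of 0.97 ± 0.33 (adjusted p = 0.0234), and not in wild type, with 0.73 ± 0.34 (adjusted p = 0.0982). The mutant response minus the wild type response was 0.24 ± 0.47 (adjusted p = 0.961). At 3 h the footprint levels were 10.2, 17 and 13.3 CPM in the mutant and 12.7, 19.2 and 9.88 CPM in wild type, overlapping the 0 h libraries in both strains.

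**Figure D3:**
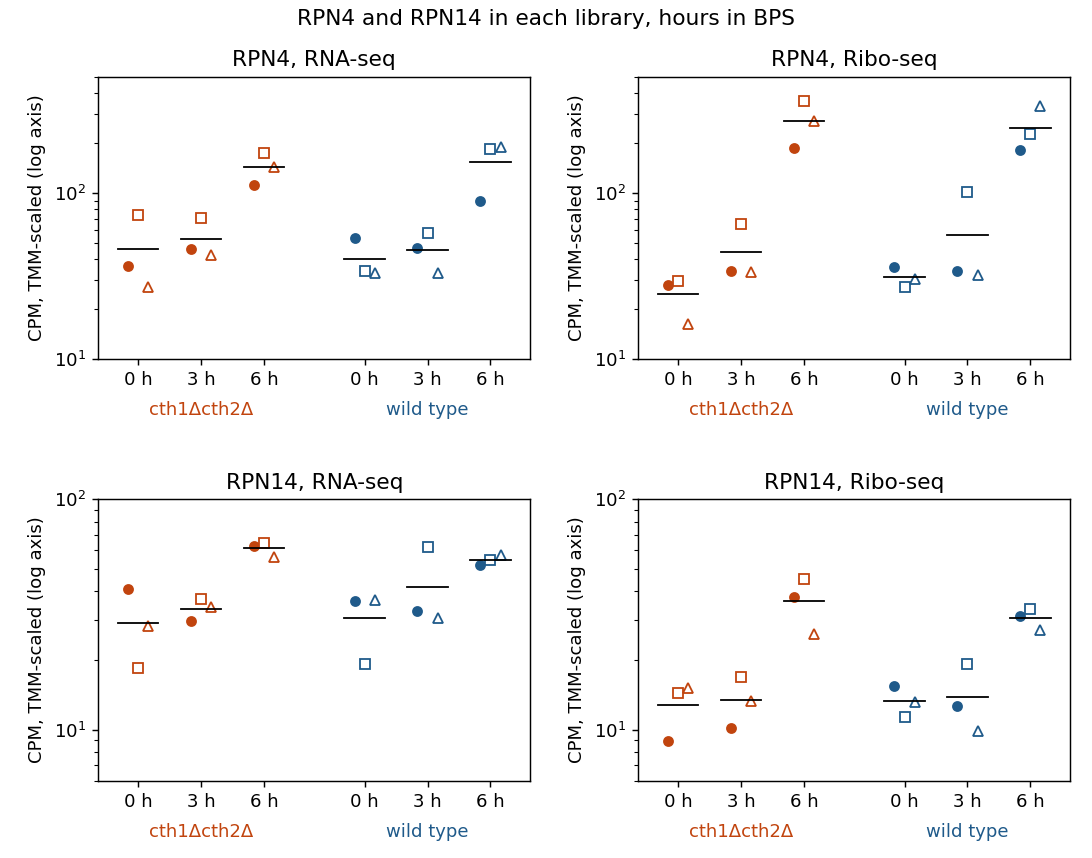
RPN4 (top) and RPN14 (bottom) in each library, in TMM-scaled CPM on a log axis, for RNA-seq (left) and Ribo-seq (right). Filled circles, open squares and open triangles are replicates 1, 2 and 3 and lines are means, with the mutant in orange and wild type in blue. RPN4 footprints lie at 183 to 358 CPM at 6 h and at 16.2 to 35.7 CPM at 0 h.

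The subunits moved far less than RPN4, and their summed levels showed which libraries stand apart. Averaged over the 14 core subunits, the footprint level in CPM per kilobase was 192, 172 and 197 in the mutant libraries of 0 h, then 257, 229 and 224 after 3 h of BPS, and 267, 287 and 195 after 6 h. In wild type it was 191, 193 and 190 in the 0 h libraries, then 240, 258 and 223 after 3 h of BPS, and 276, 174 and 140 after 6 h. The 3 h libraries were above the 0 h libraries in both strains, while the 6 h libraries spread widely. At 6 h wild type replicate 1 was the high library, and mutant replicate 3 was the low one of its group.

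For the core means, the same replicates stood apart in RNA-seq, which came from the same lysates. The mean RNA level of the core subunits was 302, 308 and 241 CPM per kilobase in the mutant at 6 h, and 299, 187 and 217 in wild type at 6 h. For the regulatory subunits it was 198, 202 and 181 in the mutant and 175, 127 and 168 in wild type, where replicate 2 was the low one. Wild type 6 h replicate 1 was also the shallowest RNA-seq library, with 113262 counts. Over the 18 regulatory subunits, the mean footprint level at 6 h was 210, 234 and 187 CPM per kilobase in the mutant and 191, 168 and 153 in wild type. It was 187, 163 and 149 in the mutant and 175, 165 and 155 in wild type at 0 h. The regulatory particle means thus spread less between replicates of wild type at 6 h than the core means did. What sets these libraries apart was not tested. The counts of called members at 6 h are given below with and without wild type replicate 1 (footprints) and mutant replicate 3.

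**Figure D4:**
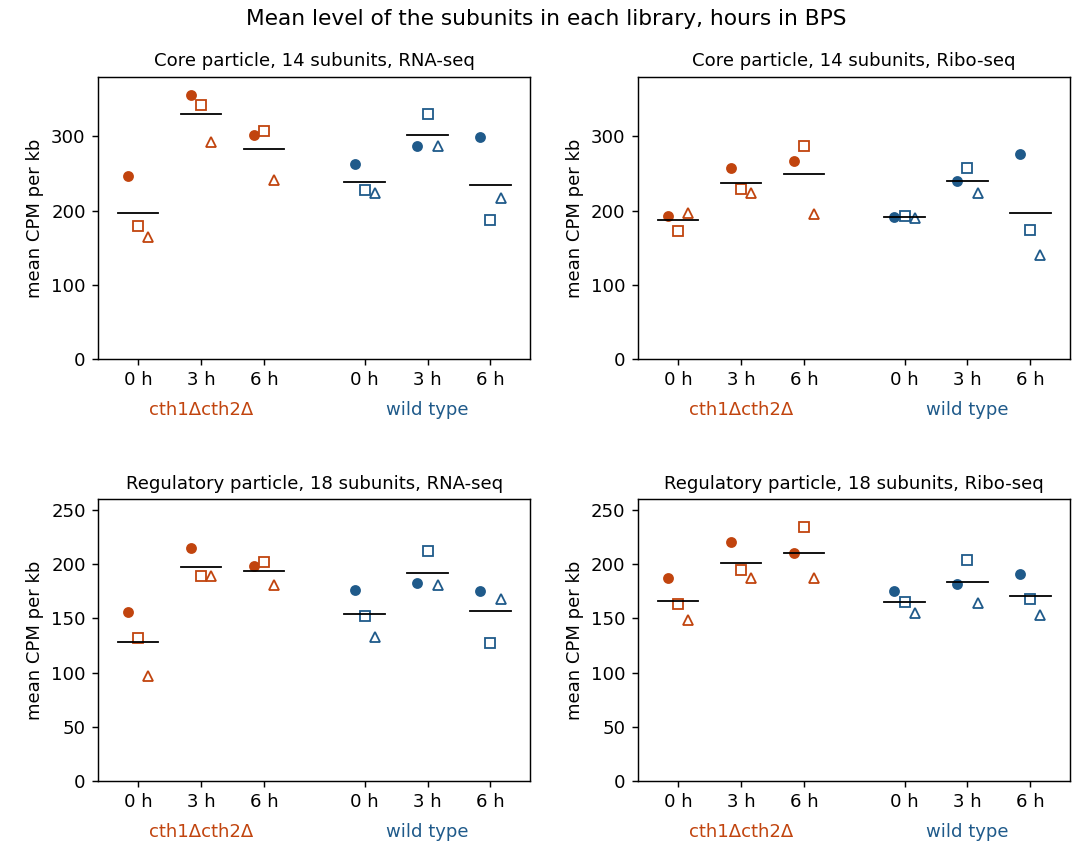
Mean level of the 14 core subunits (top) and the 18 regulatory subunits (bottom) in each library, in CPM per kilobase, for RNA-seq (left) and Ribo-seq (right). Filled circles, open squares and open triangles are replicates 1, 2 and 3 and lines are means over replicates, with the mutant in orange and wild type in blue. In Ribo-seq of wild type at 6 h the core means are 276, 174 and 140.

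After 3 h in BPS, the subunits leaned upward in both strains and both assays, and no member passed the test in either assay. The mutant RNA values were the largest: the median log2 change was 0.57 for the core and 0.60 for the regulatory subunits, against -0.03 over all features, and 31 of 32 subunits were above 0. In wild type RNA the medians were 0.29 for the core, 0.28 for the regulatory subunits and 0.03 over all features. In footprints they were 0.31 for the core and 0.24 for the regulatory subunits in the mutant (0.00 over all features), and 0.31 and 0.14 in wild type (0.02 over all features). By edgeR's quasi-likelihood test 0 members passed in each of the 4 comparisons. At an unadjusted p under 0.05 there were 13 in mutant RNA, 5 in mutant footprints, 2 in wild type RNA and 2 in wild type footprints. In the same order, that threshold was met in either direction by 19.1%, 19.7%, 14.5% and 18.3% of all features. DESeq2 called 5 in mutant RNA (PUP2, PRE10, PRE2, RPT1 and RPN5), 3 in mutant footprints, 0 in wild type RNA and 1 in wild type footprints. In edgeR's test, 2.13% of all features passed as higher in mutant RNA and 2.86% in mutant footprints. In wild type these shares were 2.66% in RNA and 3.67% in footprints. DESeq2 called higher 178 of 6006 features in mutant RNA and 293 of 5315 in mutant footprints. In wild type DESeq2 called higher 192 of 6006 features in RNA and 281 of 5315 in footprints.

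Within the subunits, the separation of libraries at 3 h differed between particles in wild type footprints. Footprints of 12 of the 14 core subunits were higher in every 3 h library than in every 0 h library, and so were those of 2 of the 18 regulatory subunits, against 16.1% of all features. In the mutant these counts were 9 of 14 core and 9 of 18 regulatory subunits, against 16.7% of all features. In mutant RNA they were 7 of 14 and 10 of 18, against 11.8%. In wild type RNA they were 4 of 14 and 3 of 18, and the share over all features is not given here. The subunits share the libraries, so these counts are not independent observations. The difference between the particles was not tested.

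PRE2 is the β subunit with the chymotrypsin-like active site. At 3 h it had the largest change of the β ring in mutant RNA and in footprints of both strains. It is shown as an extreme and not as a typical subunit. Its RNA was 479, 544 and 406 CPM in the mutant at 3 h, against 243, 148 and 239 CPM at 0 h. In wild type its RNA was 361, 461 and 348 CPM at 3 h, against 327, 203 and 277 CPM at 0 h. All 3 h libraries were above the 0 h libraries of their strain. The log2 change in the mutant was 1.15 ± 0.32, just outside the threshold (adjusted p = 0.0517, edgeR's quasi-likelihood test). Its footprints changed by 0.55 ± 0.19 in the mutant and by 0.55 ± 0.19 in wild type, also not called (adjusted p = 0.107 and 0.113).

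At 6 h the mutant kept this upward lean, and some members passed the test. In RNA-seq 8 members were higher and 0 lower: PRE10 and PRE2 of the core, RPT1, RPT2, RPN5 and RPN12 of the regulatory particle, and RPN4 and RPN14. That is 8 of 34, where 17.8% of all features were called higher and 20.9% lower. Of the 32 subunits alone 6 were called higher, a share near that of all features. The median log2 change was 0.46 for the core and 0.61 for the regulatory subunits, against 0.01 over all features. In every 6 h library above every 0 h library were 2 of 14 core and 9 of 18 regulatory subunits, against 23% of all features.

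RPT1, a base ATPase, had RNA levels of 434, 458 and 357 CPM in the mutant at 6 h, against 186, 265 and 165 CPM at 0 h. The groups did not overlap, and the log2 change was 1.05 ± 0.28 (adjusted p = 0.00456, edgeR's quasi-likelihood test). RPN5, a lid subunit, had 263, 283 and 273 CPM in the mutant at 6 h, against 168, 92.4 and 112 CPM at 0 h, a log2 change of 1.11 ± 0.33 (adjusted p = 0.0114). PRE2 RNA was 444, 401 and 338 CPM in the mutant at 6 h, against 243, 148 and 239 CPM at 0 h, with no overlap and a log2 change of 0.88 ± 0.32. RPN12, a lid subunit, had 166, 154 and 187 CPM in the mutant at 6 h, against 110, 98.6 and 79.5 CPM at 0 h. RPT2, a base ATPase, had 210, 223 and 238 CPM in the mutant at 6 h, against 174, 117 and 91.9 CPM at 0 h, and neither of these genes overlapped between the times. PRE10 had 212, 272 and 173 CPM in the mutant at 6 h, against 182, 86.3 and 85 CPM at 0 h, where mutant 0 h replicate 1 was above the lowest 6 h library. The levels in mutant 0 h replicate 2 rest on few counts. These were 43 for RPT1, 15 for RPN5, 24 for PRE2, 16 for RPN12, 19 for RPT2 and 14 for PRE10. RPT1 kept its call under all 26 alternatives run and RPN5 under 25, while PRE10 lost its call under 9 and RPT2 under 10. Single mutant libraries moved the RNA count: 16 members were called without replicate 1 of 0 h and 4 without replicate 3 of 0 h (PRE2, RPT1, RPN5 and RPN4). Without mutant 0 h replicate 2 there were 5, without mutant 6 h replicate 1 also 5 and without mutant 6 h replicate 2 there were 4. Without mutant 6 h replicate 3 there were 6, with RPT2 and RPN12 lost. Replicate numbers paired the libraries in this comparison, and with them as a block 10 members were called, PUP2 and RPN13 in addition.

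Footprints in the mutant at 6 h gave 11 higher members and 0 lower: PRE8, PUP2, PRE10 and PRE2 of the core, RPT1, RPT2, RPT3, RPT5 and RPN2 of the base, and RPN4 and RPN14. Of all features, 26.2% were called higher and 24.5% lower. Of the 32 subunits alone 9 were called higher, again near the share of all features. In this fit none of the 8 lid subunits passed, with a median log2 change of 0.16, against 0.53 for the α ring, 0.34 for the β ring, 0.51 for the base ATPases and 0.07 over all features. In every 6 h library above every 0 h library were 4 of 14 core and 6 of 18 regulatory subunits, against 29.2% of all features. A difference between these subgroups was not tested. The lid count depended on the setting: RPN8 and RPN12 passed without mutant 6 h replicate 3 and under total counts, and RPN12 also by DESeq2 and without wild type 6 h replicate 1 or replicate 3. Without mutant 6 h replicate 3, 12 members passed in footprints, with PRE4, RPN8 and RPN12 gained and RPT2 and RPT5 lost.

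PRE8, an α ring subunit, had 298, 310 and 233 CPM of footprints in the mutant at 6 h, against 135, 132 and 157 CPM at 0 h. It rose by 0.99 ± 0.23 on the log2 scale (adjusted p = 0.00216, edgeR's quasi-likelihood test). RPT3, a base ATPase, had 342, 355 and 335 CPM at 6 h, against 174, 189 and 166 CPM at 0 h, and rose by 0.97 ± 0.19 (adjusted p = 0.000607). RPN2 had 539, 525 and 653 CPM at 6 h, against 323, 306 and 331 CPM at 0 h, and rose by 0.84 ± 0.20 (adjusted p = 0.00258). These 3 genes, PUP2 with 0.74 ± 0.22 and PRE2 with 0.66 ± 0.19 kept their calls under all 25 alternatives run. RPT2 and RPT5, with log2 changes of 0.49 and 0.53, each lost theirs under 16 of 25. Without mutant 0 h replicate 2, or without replicate 3, 7 members were called.

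RPN2 and RPN5 were each called in 1 assay. RPN2 was called in mutant footprints, and in mutant RNA it had 338, 486 and 331 CPM at 6 h, against 301, 401 and 208 CPM at 0 h. The change in footprints relative to RNA was 0.46 ± 0.37 for RPN2 (adjusted p = 0.608, edgeR's quasi-likelihood test), so a difference between the assays was not shown. RPN5 rose in mutant RNA, and its footprints were 262, 316 and 227 CPM at 6 h, against 330, 226 and 188 CPM at 0 h, with overlapping groups. Of the 8 members called in RNA and the 11 called in footprints, 6 were shared (PRE10, PRE2, RPT1, RPT2, RPN4 and RPN14), that is 6 of 8 and 6 of 11.

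In wild type at 6 h the upward lean of 3 h was not seen, and the subunits were split in sign. In RNA-seq the medians were -0.07 for the core, 0.09 for the regulatory subunits and 0.03 over all features, with 16 of 32 subunits above 0 (30 of 32 under total counts, which also raise the median of all features). RPN4 was the 1 member called higher of 34, where 19.2% of all features were. The extremes among the subunits were PUP2 with a log2 change of 0.24 and the β subunit PRE4 with -0.63 in the core, and RPT1 with 0.31 and the lid subunit RPN9 with -0.69 in the regulatory particle. PUP2 had 356, 181 and 240 CPM of RNA in wild type at 6 h, against 295, 217 and 136 CPM at 0 h, and RPT1 had 326, 224 and 313 CPM at 6 h, against 236, 222 and 237 CPM at 0 h. Both genes overlapped between the times. PRE4 had 126, 90.5 and 124 CPM of RNA in wild type at 6 h, against 166, 183 and 180 CPM at 0 h, and RPN9 had 111, 90.5 and 111 CPM at 6 h, against 203, 116 and 176 CPM at 0 h. Both were lower in every 6 h library, and neither passed the test (adjusted p = 0.113 and 0.109, edgeR's quasi-likelihood test). In wild type 6 h replicates 1 and 2, PRE4 had only 17 and 25 counts and RPN9 had 15 and 25.

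Footprints in wild type at 6 h gave 6 higher members: PRE2, RPT1, RPT3, RPN2, RPN4 and RPN14. Of all features, 28.5% were called higher and 24.3% lower. Of the 32 subunits alone 4 were called higher, a smaller share than over all features. The median log2 change was -0.01 for the core and -0.02 for the regulatory subunits, against 0.09 over all features, with 15 of 32 subunits above 0. PRE2 had 314, 296 and 321 CPM at 6 h, against 178, 206 and 174 CPM at 0 h. It rose by 0.74 ± 0.19 on the log2 scale (adjusted p = 0.00358, edgeR's quasi-likelihood test) and kept the call under all 25 alternatives run. RPN2, with 375, 504 and 514 CPM at 6 h, against 331, 343 and 313 CPM at 0 h, rose by 0.50 ± 0.20 (adjusted p = 0.046) and lost the call under 18 of 25. RPT1 had 408, 443 and 366 CPM of footprints at 6 h, against 304, 306 and 266 CPM at 0 h, and RPT3 had 277, 229 and 210 CPM at 6 h, against 160, 167 and 183 CPM at 0 h. RPT1 and RPT3 did not overlap between the times, and with log2 changes of 0.48 and 0.49 they lost their calls under 15 and 14 of 25. Without any 1 of the wild type 0 h libraries 3 members were called (PRE2, RPN4 and RPN14). The 6 members called in wild type were all among the 11 called in the mutant.

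The lowest subunits in wild type footprints at 6 h show how much replicate 1 weighs. PRE9 had 147, 106 and 72.8 CPM at 6 h, against 133, 154 and 133 CPM at 0 h, a log2 change of -0.37. The ubiquitin receptor RPN13 had 90.6, 37.6 and 40.8 CPM at 6 h, against 72.1, 68 and 69.5 CPM at 0 h, a log2 change of -0.33. In both genes replicate 1 was above the other 6 h libraries. Without wild type 6 h replicate 1, 9 members passed the test, 4 higher (PRE2, RPN2, RPN4 and RPN14) and 5 lower. The lower ones were SCL1 with -0.67 ± 0.26, PRE9 with -0.65 ± 0.24, PUP3 with -0.88 ± 0.24, RPN10 with -0.71 ± 0.24 and RPN13 with -0.84 ± 0.26 on the log2 scale. The median over the 34 members was then -0.23. The shares of all features called in that fit are not given here.

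**Figure D5:**
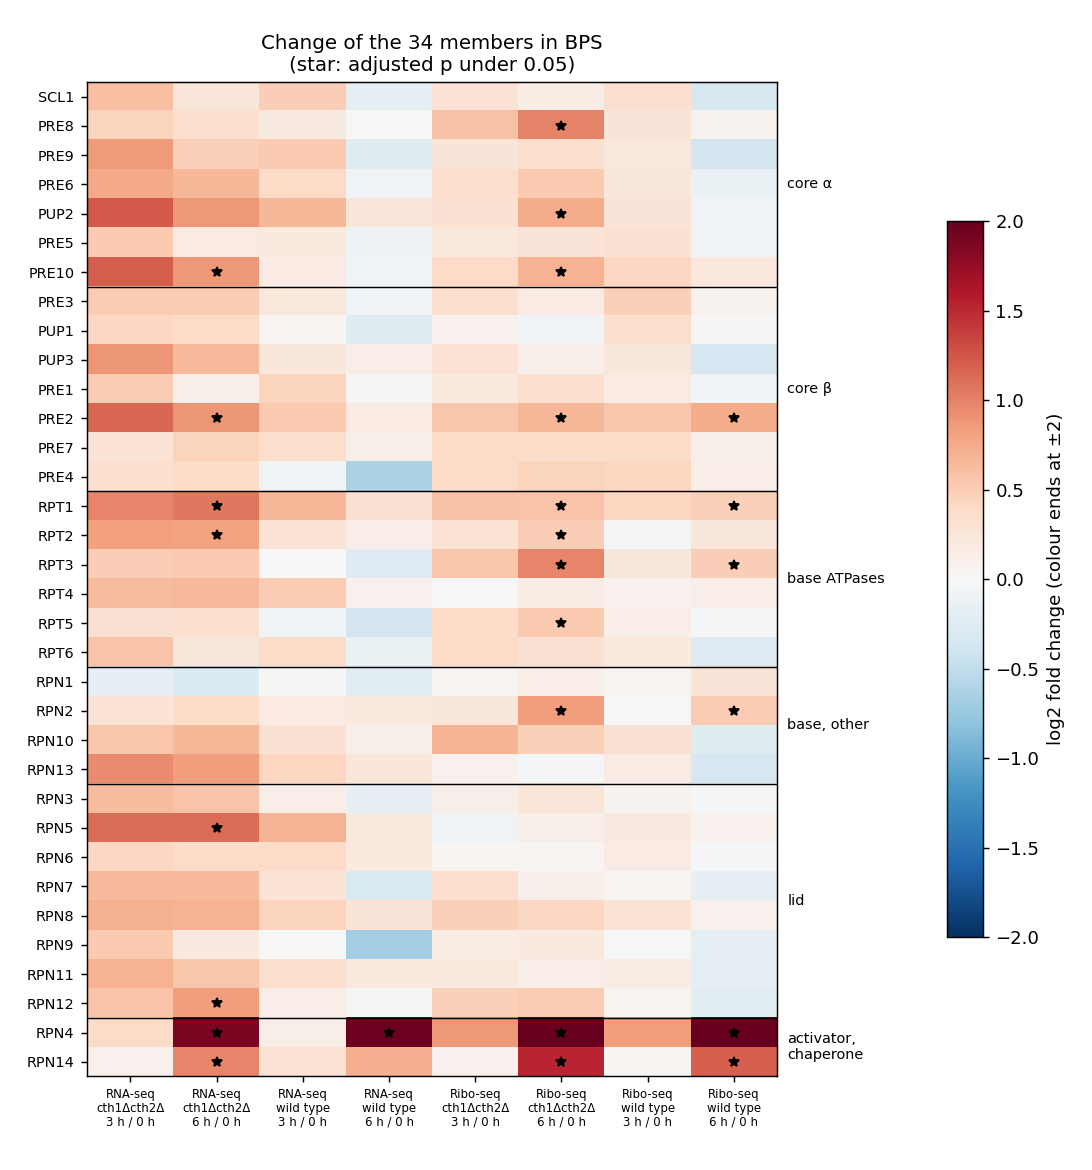
Log2 fold change of each of the 34 members (rows, grouped by role) after 3 h and 6 h in BPS against 0 h, for each assay and strain (columns), from edgeR. Red is higher and blue lower than at 0 h, the colour ends at 2 in either direction, and a star marks an adjusted p under 0.05. RPN4 and RPN14 stand out at 6 h, and the subunit changes in wild type at 6 h are mixed in sign.

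Between the strains at 6 h, all 32 subunits were estimated higher in the mutant than in wild type in both assays (31 of 32 in RNA with RLE factors), and no single member passed the test. The median log2 difference in RNA was 0.27 for the core and 0.34 for the regulatory subunits, against -0.07 over all features. In footprints it was 0.33 and 0.26, against -0.10 over all features. Of all features, 43.2% in RNA and 41.1% in footprints were above 0. Called higher in the mutant were 0 members in each assay by edgeR's quasi-likelihood test, against 0.566% of all features in RNA and 4.68% in footprints. At an unadjusted p under 0.05 there was 1 member in RNA (PRE4) and 5 in footprints (PRE8, PUP2, RPT3, RPT5 and RPT6). That threshold was met in either direction by 8.59% of all features in RNA and 18.1% in footprints. DESeq2 called 0 in RNA and 4 in footprints (PRE8, PUP2, RPT3 and RPT5), where it called 311 of 5315 features higher. In every mutant library above every wild type library at 6 h were 9 of 34 members in RNA, against 7.53% of all features, and 8 of 34 in footprints, against 7.9%.

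PUP2, an α ring subunit, had 185, 200 and 190 CPM of footprints in the mutant at 6 h, against 170, 112 and 87 CPM in wild type at 6 h. The libraries did not overlap, and the log2 difference was 0.64 ± 0.22 (adjusted p = 0.103, edgeR's quasi-likelihood test). RPT5 had 313, 370 and 303 CPM in the mutant, against 248, 224 and 189 CPM in wild type, a log2 difference of 0.58 ± 0.21 (adjusted p = 0.134). Without wild type 6 h replicate 1, 7 members were called higher in the mutant (PRE8, PRE6, PUP2, PRE10, PUP3, RPT3 and RPN10), with 0.96 ± 0.22 for PRE8 and 0.94 ± 0.19 for PUP2. The share of all features called in that fit is not given here, so a gain particular to the members is not shown. That library was the high one of its group for the core subunits, so these calls are not independent of which library was left out. Leaving out any other library, mutant 6 h replicate 3 included, gave no called member. The log2 difference of RPN4 between the strains at 6 h was -0.17 ± 0.35 in RNA and 0.13 ± 0.42 in footprints (adjusted p = 0.98 and 0.94).

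Before BPS the strains gave no called member either. The median log2 difference at 0 h was -0.32 for the core and -0.31 for the regulatory subunits in RNA, against 0.04 over all features, and -0.05 and -0.01 in footprints, against 0.02. At 3 h it was 0.17 and 0.05 in RNA and -0.07 and 0.11 in footprints. At neither time did any member pass edgeR's quasi-likelihood test (0 in each assay), with 0 at an unadjusted p under 0.05 and 0 by DESeq2 as well. That unadjusted threshold was met by 3.95% of all features in RNA and 2.9% in footprints at 0 h. At 3 h it was met by 4.1% and 5.93%. The 0 h libraries of the mutant also enter its changes at 3 h and 6 h. The mutant response at 3 h minus that of wild type had a median of 0.36 for the core in RNA. For the regulatory subunits it was 0.35, against -0.08 over all features. In footprints the medians were 0.01 and 0.18, against -0.06. For this difference edgeR's test called 0 members in each assay, and called higher 0% of all features in RNA and 0.263% in footprints.

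The response itself, 6 h against 0 h in the mutant minus the same in wild type, was above 0 for 31 of 32 subunits in RNA and 29 of 32 in footprints. The median was 0.60 for the core and 0.63 for the regulatory subunits in RNA, against -0.09 over all features, and 0.42 and 0.30 in footprints, against -0.10. By edgeR's quasi-likelihood test 0 members passed in each assay, as did 0% of all features in RNA and 2.22% as higher in footprints. An unadjusted p under 0.05 was reached by 3 members in each assay, against 7.83% of all features in RNA and 14.4% in footprints. DESeq2 called 0 members in each. PRE8 had the largest footprint difference, 0.92 ± 0.33 (adjusted p = 0.161). Without wild type 6 h replicate 1, PRE8, PUP2 and RPN10 passed, with differences of 1.21 ± 0.29, 1.09 ± 0.25 and 1.19 ± 0.33. The share of all features that passed in that fit is not given here. Without any other library, mutant 6 h replicate 3 included, no member passed. A response that passed the test in the mutant and not in wild type is therefore not shown to differ between the strains.

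In wild type footprints the core particle mean was higher relative to the regulatory mean at 3 h than at 0 h, and no other group was set apart from 0 h in this way. In footprints the ratio of the core mean to the regulatory mean, per kilobase, was 1.14 ± 0.159, 1.18 ± 0.0153 and 1.18 ± 0.115 in the mutant at 0, 3 and 6 h. The ratio for wild type was 1.16 ± 0.0656, 1.32 ± 0.0451 and 1.13 ± 0.281 at those times. In RNA the ratio of the mutant was 1.55 ± 0.179, 1.67 ± 0.135 and 1.46 ± 0.115 at 0, 3 and 6 h, and that of wild type was 1.56 ± 0.107, 1.57 ± 0.0153 and 1.49 ± 0.21. The wild type footprint ratio at 3 h was 1.32, 1.27 and 1.36, against 1.09, 1.17 and 1.22 at 0 h, with no overlap. At 6 h it was 1.45, 1.03 and 0.916 in replicates 1, 2 and 3, on both sides of the 0 h libraries. These ratios were not tested.

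Among the Ribo-seq groups, the levels of the core subunits spread most in wild type at 6 h on average, with replicate 3 the widest. Their coefficient of variation in the mutant was 19.4, 21.1 and 16.9% in the 0 h libraries, 20.3, 28.7 and 23.1% after 3 h and 22.6, 22.1 and 39.1% after 6 h. In wild type it was 12.4, 15.4 and 13.5% in the 0 h libraries, 14.5, 19.6 and 14% after 3 h and 18.1, 32 and 51.2% after 6 h. The libraries with the lowest core means at 6 h, mutant replicate 3 and wild type replicate 3, had the highest coefficient of variation in their groups.

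Subunits with and without the control element did not differ visibly in their medians. In mutant footprints at 6 h the median log2 change was 0.34 over the 27 subunits with it and 0.25 over the 5 without it. In mutant RNA it was 0.52 with it and 0.67 without it. In the edgeR fit of all libraries with TMM factors, the filter and no block, the subunits called in either strain all carried the element. RPN13, which lacks it, was called in mutant RNA at 6 h with the replicate block, RLE factors, no filter or DESeq2, and without several single libraries. Total counts also called PRE5, PUP1, RPN8 and RPN10 there, leaving out mutant 0 h replicate 1 called RPN8, RPN10 and RPN13, and thinning called RPN8. In footprints at 6 h, RPN8 passed in the mutant without its replicate 3 and under total counts. RPN10 and RPN13 passed as lower in wild type without its replicate 1. With 5 subunits lacking the element these counts say little.

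Translational efficiency, the change in footprints relative to RNA, gave 0 called members at 6 h in either strain by edgeR's quasi-likelihood test. Of all features, 1.04% were called higher in the mutant and 0.0945% in the wild type. At an unadjusted p under 0.05 there were 2 members in the mutant and 1 in wild type, against 14.2% and 10.4% of all features. DESeq2 called 0 members in each strain. The median change in the mutant was -0.14 for the core and -0.32 for the regulatory subunits, against 0.11 over all features, with 0 of the 8 lid subunits above 0. RPN4 had a change of 1.62 in the mutant (adjusted p = 0.186) and 1.00 in wild type (adjusted p = 0.599). Since RNA and footprints came from one lysate, the lysate was also fitted as a block. Then RPN4 rose by 1.63 in the mutant (adjusted p = 0.00632) and RPN5 fell by 1.00 (adjusted p = 0.0325, against 0.214 with no block), while 5.35% of all features were called higher and 2.25% lower. In wild type RPN4 did not pass with that block (0.97, adjusted p = 0.126).

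Other genes of the ubiquitin and proteasome system were called in both directions at 6 h. Of the 4 ubiquitin genes, UBI4, the stress-induced polyubiquitin gene, rose in footprints by 3.39 ± 0.42 on the log2 scale in the mutant and by 3.35 ± 0.42 in wild type. The other ubiquitin genes encode fusions to ribosomal proteins, and all 3 were lower in both strains. Footprints of RPL40A fell by 2.32 in the mutant and fell by 2.73 in wild type. Those of RPL40B fell by 2.86 in the mutant and fell by 2.76 in wild type, and those of RPS31 fell by 2.32 in the mutant and fell by 2.92 in wild type. RPL40A and RPL40B are near-identical paralogues and the ubiquitin repeats are shared, so how reads were split between these genes is uncertain.

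For these lists, the share of all features called higher in footprints was 26.2% in the mutant and 28.5% in wild type, and the share called lower was 24.5% and 24.3%. Of the 10 ubiquitin transfer enzymes, 6 were higher in mutant footprints and 7 in wild type footprints at 6 h, and 0 were lower. In RNA 1 was higher and 1 lower in the mutant (17.8% and 20.9% of all features), while wild type had 3 higher and 0 lower (19.2% and 16.7%). UBC5, a conjugating enzyme of the stress response, rose by 2.13 ± 0.39 in the mutant and by 2.33 ± 0.40 in wild type, although it has a close paralogue, UBC4. The ligase UFD4 rose by 1.45 ± 0.27 in the mutant and 1.82 ± 0.27 in wild type. UBR2, the ligase that marks Rpn4 for degradation, rose by 1.35 ± 0.41 in the mutant and 1.79 ± 0.41 in wild type. Of 5 regulators of RPN4, 4 were higher in the footprints of each strain, and in RNA 1 was higher in the mutant and 2 in wild type. In footprints these included the activators HSF1 with log2 changes of 1.00 in the mutant and 1.30 in wild type, and YAP1 with 1.33 and 1.22. MUB1, the partner of Ubr2, rose by 1.05 in the mutant and 1.34 in wild type.

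Among the 7 shuttle receptor and Cdc48 genes, 4 were higher and 1 lower in mutant footprints, and wild type footprints had 3 higher and 1 lower. In RNA 2 were higher in the mutant and 1 in wild type. UFD1 rose by 1.37 in the mutant and 1.21 in wild type, DDI1 by 1.28 and 1.17, and CDC48, the segregase ATPase, by 0.56 and 0.78. The shuttle receptor RAD23 fell by 0.91 in the mutant and by 0.90 in wild type. Of the 9 assembly factors, 1 was higher in the mutant, a smaller share than over all features, namely HSM3, a base chaperone, with 1.17 ± 0.27. In wild type 2 were higher, NAS2 with 0.87 and HSM3 with 0.67, and IRC25 fell by 0.95. Of the 7 associated proteins, 2 were higher in the mutant, near that share, and 4 in wild type, led by the ligase HUL5 with 1.78 ± 0.37 in the mutant and 2.01 ± 0.37 in wild type. SPG5 had 0.83 in the mutant and 0.91 in wild type, and ECM29, a proteasome tether, had 0.90 in wild type.

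RNA-seq gave the same direction for UBI4, UBC5 and RPS31. UBI4 RNA rose by 2.89 ± 0.36 in the mutant and 2.47 ± 0.36 in wild type, and UBC5 RNA by 1.86 ± 0.37 and 2.15 ± 0.39. RPS31 RNA fell by 2.24 in the mutant and fell by 2.74 in wild type. The core chaperone gene POC4 fell in RNA by 1.11 ± 0.33 in the mutant and fell by 1.26 ± 0.37 in wild type, and in footprints it had -0.36 ± 0.54 in the mutant and -0.97 ± 0.52 in wild type, not called. The control element was found in 0 of the 9 assembly factors, 1 of 7 associated proteins, 1 of 4 ubiquitin genes, 1 of 10 transfer enzymes, 1 of 7 shuttle and Cdc48 genes and 1 of 5 RPN4 regulators.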

How the data were processed

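The authors deposited 1 table of whole-number read counts per library for 7127 features, with a feature length. The submitters' processing notes name cutadapt 3.4, Bowtie 1.1.2, STAR 2.7.9a and the R64 build. The counting program and its treatment of strand and of reads with several matches are not given in the sources used here. Features with too few counts were removed with filterByExpr (minimum count 10), which left 6006 features in RNA-seq, 5315 in Ribo-seq and 5290 in both, and all 34 members passed in each. All 18 libraries of an assay entered 1 edgeR 4.0.16 quasi-likelihood fit (R 4.3.3) with TMM factors and 12 residual degrees of freedom. Translational efficiency was the interaction of assay and condition in 1 model of 36 libraries with 24 residual degrees of freedom. Benjamini-Hochberg adjustment ran over all features of each contrast, and calls were made at 0.05. The SE of a log2 change is its size over the root of the F statistic. The fits were tested on simulated data. No replicates agreed within sampling noise (chi-square per degree of freedom 3.88 to 228).

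Members and lists were chosen with earlier results of these data known. By rule, per-sample values are given for RPN4, RPN14, the largest rise and fall of each particle in wild type at 6 h and any member past the threshold between strains or in translational efficiency, and up to 3 rises and 3 falls are named per other list in wild type at 6 h. The highest and lowest levels at 0 h are given as means and SD. The other members shown by sample (3 h values, strain differences and calls in the mutant included), and the mutant values of the listed genes, HSF1, YAP1, MUB1 and CDC48 among them, were added after their values were seen. Same-numbered libraries deviated together, with every correlation over 0.1, in RNA for mutant 6 h against 0 h (mean 0.151) and between strains at 0 h (0.37) and 6 h (0.284), and in Ribo-seq for 3 h against 0 h in the mutant (0.342) and wild type (0.262) and between strains at 3 h (0.51). RNA and footprints of 1 lysate were paired by the protocol (mean correlation 0.357 over 18 lysates). Alternatives were RLE factors, total counts, DESeq2 1.42.0, no filter, the groups compared alone, a replicate or lysate block, thinning to the smallest library, each library left out, and RNA-seq libraries of at least 400000 counts, the last chosen after seeing the data.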

Additional observations from a re-analysis of the deposited data

How the results depend on the processing

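Directions and calls for RPN4 at 6 h held under every alternative, and the counts of called members depended on normalisation and on single libraries. Total counts gave 32 called members in mutant RNA at 6 h, 5 in mutant RNA at 3 h, 3 in wild type RNA at 6 h and 1 in translational efficiency of the mutant at 6 h. Of 6006 features, total counts called higher 2422 in mutant RNA at 6 h, 284 at 3 h and 2088 in wild type RNA at 6 h. The member called in efficiency was lower, as were 113 of 5290 features. DESeq2 gave 5 in mutant RNA at 3 h, 3 in mutant and 1 in wild type footprints at 3 h, and 4 between strains in footprints at 6 h. In the same order, DESeq2 called higher 178 of 6006 features, then 293, 281 and 311 of 5315. Thinning to the smallest library gave 2 in wild type RNA at 6 h, 2 in mutant RNA at 3 h, core minus regulatory medians of 0.10 in mutant RNA at 6 h and -0.09 in its translational efficiency, and RPN14 efficiency of -0.63 in the mutant and -0.03 in wild type (-0.07 with total counts). With only the groups compared, 4 were called in mutant RNA, 7 in mutant footprints and 3 in wild type footprints at 6 h, and with no filter 3 in the last. With RNA-seq libraries of at least 400000 counts, an alternative chosen after seeing the data, 2 (RPT1 and RPN4) were called in mutant RNA at 6 h. The replicate number as a block gave 4 in mutant RNA at 3 h, where the numbers did not pair the libraries, and the lysate block gave 2 in mutant efficiency at 6 h. The block changed no other count by over 1.5 times. With the replicate block, 177 of 6006 features were called higher in mutant RNA at 3 h. Shares over all features are not given here for thinning, the groups compared alone, no filter, the 400000 count limit or single libraries left out.

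Leaving out one library gave 0 to 5 called members in mutant RNA at 3 h (5 without mutant 0 h replicate 1), 4 to 16 in mutant RNA at 6 h, 7 to 12 in mutant footprints at 6 h (7 without mutant 0 h replicate 2) and 3 to 9 in wild type footprints at 6 h (3 without wild type 0 h replicate 1). It gave 0 to 7 between strains and 0 to 3 in the strain difference of the response, in footprints at 6 h. The core minus regulatory median in RNA was -0.08 to 0.23 in wild type at 3 h, -0.28 to 0.14 in wild type at 6 h, -0.05 to 0.13 in the mutant at 3 h and -0.24 to 0.03 in the mutant at 6 h. PUP2 RNA in wild type at 6 h was -0.02 to 0.57. The cause of each change was not tested. Depth limits RNA-seq most: some members had as few as 3 counts in the shallow libraries, so RNA differences of the size seen in footprints may not be detectable there.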
